A study of Mus musculus with 9 samples.

Results

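The 2 blood-cell microRNA hairpins Mir223 and Mir142 give 4 mature microRNAs (miRNAs): miR-223-3p, miR-223-5p, miR-142a-3p and miR-142a-5p (mmu-miR-223-3p, mmu-miR-223-5p, mmu-miR-142a-3p and mmu-miR-142a-5p in the count table). They were chosen by name, as the 4 entries of these hairpins among the 817 miRNAs of the deposited small RNA-seq count table, and each was followed through the same 9 libraries: its abundance, and the share of its reads that carried 1, 2 or 3 thymidines (Ts) past the annotated 3′ end. A T past the end is how an added uridine (U) reads in a DNA library. All 9 libraries, labelled preLSC, came from mouse c-Kit-enriched mid-gestation fetal liver cells that carried retroviral Meis1 and Hoxa9, a pair of leukemia-driving transcription factors. The study calls such cells preleukemic. By its methods they were serially replated in MethoCult with stem cell factor, interleukin-3, interleukin-6 and granulocyte-macrophage colony-stimulating factor. Its other culture of these cells held stem cell factor, interleukin-6 and interleukin-3. Which culture gave the small RNA is not stated. The 5 Tut4/7 CTL libraries, labelled WT, were from Tut4 fl/fl; Tut7 fl/fl cells without Cre, and the 4 Tut4/7 cKO libraries were from cells with the same floxed alleles and Vav-iCre, a Cre recombinase driven by the Vav promoter in blood cells. All groups therefore shared the floxed alleles and the viral genes, and no difference in culture between them is described. The mRNAs of the deleted genes are not read in small RNA libraries, and the genotype labels had no direct check here.

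TUT4 and TUT7 are terminal uridylyltransferases, enzymes that add uridines to the 3′ ends of RNAs, mature miRNAs and their precursors among them. miR-223 is a hallmark miRNA of granulocytes and other myeloid cells, encoded on the X chromosome and driven by the myeloid transcription factors PU.1 and C/EBP, and it restrains the production and activation of neutrophils. miR-142 is made in nearly all blood lineages and rarely outside them. Each hairpin is cut into a 5′ arm (5p) and a 3′ arm (3p), and the seed, bases 2 to 8, pairs with target mRNAs.

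The mature sequences and hairpins are shown because every value below is a count of reads of these strands, and because the base that follows each arm decides which added T can be told from the template. They are the RefSeq entries, with positions on GRCm38.p6, plus strand. In the mature sequences the capitals mark the seed.
miR-223-3p: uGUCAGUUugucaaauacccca
miR-223-5p: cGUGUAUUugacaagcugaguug
miR-142a-3p: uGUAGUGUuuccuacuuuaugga
miR-142a-5p: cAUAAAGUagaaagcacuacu

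In the hairpins the capitals mark the mature arms, the 5p arm first.
Mir223: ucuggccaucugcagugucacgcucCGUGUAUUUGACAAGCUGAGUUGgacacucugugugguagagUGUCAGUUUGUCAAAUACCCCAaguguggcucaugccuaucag
Mir142: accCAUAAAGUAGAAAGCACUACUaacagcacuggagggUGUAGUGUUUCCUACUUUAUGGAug

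miR-223-3p lies at chrX:96242884-96242905 and miR-223-5p at chrX:96242842-96242864, both inside the long non-coding RNA gene F630028O10Rik. The nearest protein-coding gene, Vsig4, lies 4275 bases away. miR-142a-3p lies at chr11:87756903-87756925 and miR-142a-5p at chr11:87756867-87756887, where Mir142b is annotated over the same bases. Tspoap1 is the nearest protein-coding gene, 1267 bases away. None of the 4 seeds is shared with another mouse mature miRNA of the table, and the 4 seeds differ from each other. The hairpin continues with A after miR-223-3p, with G after miR-223-5p and with A after miR-142a-5p, so a T there is not in the template. It continues with U after miR-142a-3p, so a first T there could not be told from a longer cut.

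The libraries held 175462 to 479342 reads assigned to miRNAs, and 399 to 487 miRNAs had a read. The 38 distinct read sequences of the 4 miRNAs were listed under no other miRNA. Over all miRNA reads, 10.8% to 24.8% carried an added T in CTL and 7.55% to 19.3% in cKO, ranges that overlap. CTL replicate 2 had the lowest share in CTL. With miR-92a-3p, which held many of the tailed reads, left out, 4.75% of its miRNA reads carried an added T, against 7.95% to 9.58% in the other 4 CTL libraries and 3.50% to 3.68% in the 4 cKO libraries. Values for miR-223 are therefore also given without it. It was picked by its low tailing, the quantity tested, so tailing tests without it favour a difference between the groups. Their small P values are no separate support. The study's methods describe its replicates in general as coming from separate animals or embryos, while the labels tie no library to an embryo.

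The 2 hairpins differed widely in level. miR-223-3p was among the most abundant miRNAs of every library, miR-223-5p followed it, miR-142a-3p was read far less often, and miR-142a-5p gave 0 to 5 reads in a library. No change in abundance between the genotypes was detected for any of the 3 miRNAs that could be tested, and the spread within each group was wide for miR-223.

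miR-223-3p stood at 11447, 4426, 5911, 9595 and 2991 CPM (counts scaled to library size, with trimmed mean of M-values factors) in CTL replicates 1 to 5, and at 2540, 1027, 2993 and 9501 in cKO replicates 1 to 4. The groups overlapped, since 3 cKO libraries lay near or below the lowest CTL library and cKO replicate 4 lay at the level of the second highest. By rank it was 20th to 45th of 817 in CTL libraries and 24th to 61st in cKO libraries, where only 399 to 487 of the 817 had a read in a library. The means were 6874 ± 3547 (SD, n = 5) and 4015 ± 3753 CPM (SD, n = 4), a log2 fold change of -0.78 (SE 0.61) with an adjusted P of 0.632 (edgeR's quasi-likelihood test with Benjamini-Hochberg adjustment over 205 miRNAs). It was -1.02 without CTL replicate 2 (adjusted P = 0.550) and -1.75 without cKO replicate 4 (adjusted P = 0.0689) in the same edgeR test. In these bulk libraries, fewer cells that make miR-223 and less miR-223 per cell cannot be told apart.

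miR-223-5p, the other arm, was read at 1804, 1932, 1532, 2331 and 1285 CPM in the CTL libraries and at 867, 497, 1445 and 4466 CPM in the cKO libraries. Here cKO replicate 4 was the highest of all 9 libraries, while cKO replicates 1 and 2 were the lowest. The log2 fold change was 0.04 (SE 0.56, adjusted P = 0.982, edgeR). It turned to -1.01 (adjusted P = 0.134, edgeR) without cKO replicate 4, so 1 library set its sign.

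miR-142a-3p was read at 112, 151, 70.6, 94.2 and 71.4 CPM in CTL and at 157, 51.6, 125.6 and 30.2 CPM in cKO, from 12 to 55 reads in a library. Its highest and lowest values were both in cKO libraries. The log2 fold change was -0.16 (SE 0.49, adjusted P = 0.90, edgeR), and it was 0.04 without cKO replicate 2 and 0.05 without cKO replicate 4. miR-142a-5p gave 0, 1, 1, 4 and 2 reads in CTL and 2, 3, 5 and 1 reads in cKO, below the minimum of 10 reads for a test. Of the 3 miRNAs tested, 0 passed by edgeR, 0 had an unadjusted P under 0.05 and 0 passed by DESeq2. Over all 205 miRNAs tested the same edgeR test called 0.488%, while 31 had an unadjusted P under 0.05 and DESeq2 called 11. Together the 4 miRNAs held 0.401% to 1.43% of miRNA reads in CTL and 0.15% to 1.55% in cKO (exact permutation test, two-sided, P = 0.365, where the smallest P of 5 against 4 libraries is 0.0159).

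**Figure D1:**
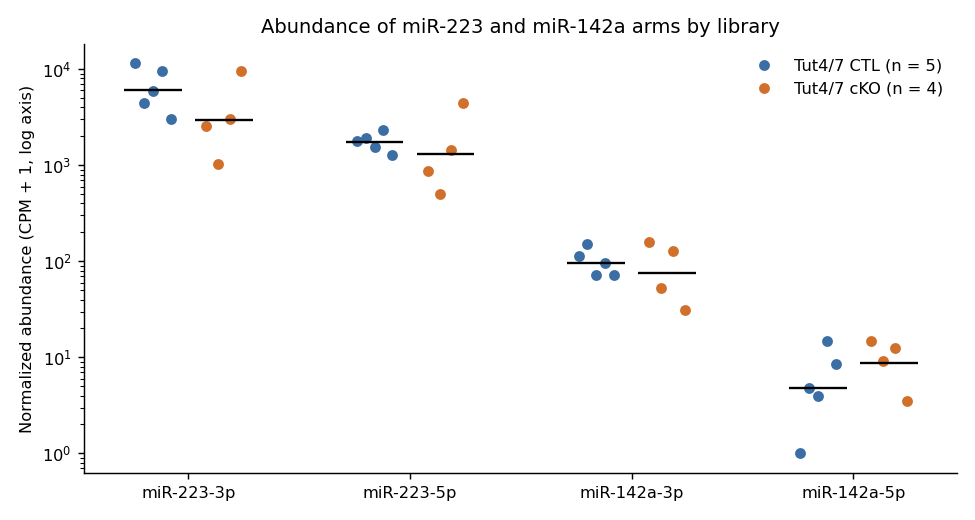
Abundance of the 4 miRNAs as CPM + 1 on a log axis, with a point for each of the 5 CTL and 4 cKO libraries and a bar at the geometric mean of each group. miR-223-3p runs from 1027 to 11447 CPM and cKO replicate 4 lies well above the other 3 cKO libraries for both miR-223 arms, while the groups overlap for every miRNA.

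The balance between the hairpins followed the same library. The log2 ratio of miR-223 to miR-142a reads, both arms summed, was 6.29 ± 0.69 (SD, n = 5) in CTL and 5.69 ± 2.05 (SD, n = 4) in cKO, and the difference of -0.61 had an exact permutation P of 0.571. cKO replicate 4 stood at 8.74, above all other libraries. Without it the difference was -1.62 (exact permutation P = 0.0357, the smallest that 5 against 3 libraries allow). Leaving out the library that stood apart in this ratio favours a difference, so this P is no separate support. With each other library left out, the exact permutation P lay between 0.486 and 0.929.

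The 2 arms of miR-223 did not keep one ratio. The log2 ratio of 3p to 5p reads was 2.67, 1.20, 1.95, 2.04 and 1.22 in CTL and 1.55, 1.05, 1.05 and 1.09 in cKO. The 3p arm led in all 9 libraries, and 3 cKO libraries lay below every CTL library while cKO replicate 1 lay among them. The means of 1.81 ± 0.62 (SD, n = 5) and 1.18 ± 0.25 (SD, n = 4) differed by -0.63 (exact permutation P = 0.0952), by -0.78 (exact permutation P = 0.0571) without CTL replicate 2, and by -0.75 (exact permutation P = 0.0357, the smallest possible) without cKO replicate 1. In this ratio CTL replicate 2 was the lowest CTL and cKO replicate 1 the highest cKO library, so leaving either out favours a difference. With each library other than cKO replicate 1 left out, the exact permutation P lay between 0.0571 and 0.179. Counted on reads without an added T alone, which is a choice made after the values were seen, the ratio was 1.32 ± 0.53 in CTL (SD, n = 5) and 1.05 ± 0.17 in cKO (SD, n = 4), a difference of -0.28 with an exact permutation P of 0.349. The gap between the groups was thus smaller without the tailed reads. At the miR-142a hairpin the log2 ratio, with 0.5 added to each count, was 4.01 ± 1.26 and 3.03 ± 0.38 (SD, n = 5 and 4, exact permutation P = 0.206), on 19 reads of the 5p arm in all.

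**Figure D2:**
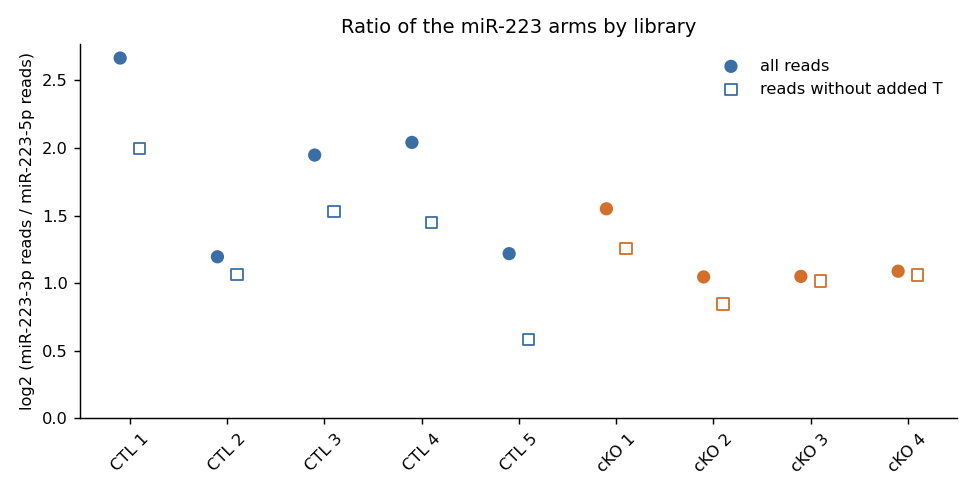
The log2 ratio of 3p to 5p reads of miR-223 per library, from all reads (filled circles) and from reads without an added T (open squares), CTL in blue and cKO in orange. All 9 libraries lie above 0, and the group means of 1.81 and 1.18 come closer, at 1.32 and 1.05, once reads with an added T are left out.

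Reads with more than 1 added T were found on miR-223-3p alone of the 4 miRNAs, of which the miR-142a arms were read too seldom for a close comparison. The read forms that start at the first base are shown because they carry this result. Capitals mark the Ts added past the mature end, and the last form ends 1 base early.
miR-223-3p, no added T: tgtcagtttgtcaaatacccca
miR-223-3p, 1 added T: tgtcagtttgtcaaataccccaT
miR-223-3p, 2 added Ts: tgtcagtttgtcaaataccccaTT
miR-223-3p, 3 added Ts: tgtcagtttgtcaaataccccaTTT
miR-223-3p, early end: tgtcagtttgtcaaatacccc

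Summed over libraries, the form with no added T was read 3884 times in CTL and 3477 times in cKO. The form with 1 T was read 1891 and 159 times, that with 2 Ts 1046 and 119 times, and that with 3 Ts 10 and 0 times. A single library, cKO replicate 4, held most of the untailed cKO reads. Without it the untailed form was read 1198 times in cKO, and the forms with 1 T and 2 Ts 76 and 99 times.

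Reads of miR-223-3p with exactly 1 added T made up 25.5%, 5.96%, 20.1%, 25.3% and 21.0% of its reads in CTL replicates 1 to 5 and 6.99%, 6.88%, 1.91% and 2.25% in cKO replicates 1 to 4. Each CTL library but CTL replicate 2 lay above every cKO library, and CTL replicate 2 lay below 2 of them. The means were 19.6% ± 8.01 (SD, n = 5), or 23.0% ± 2.83 (SD, n = 4) without CTL replicate 2, and 4.51% ± 2.81 (SD, n = 4). The log2 change in the odds of such a read was -2.52 (SE 0.63, adjusted P = 0.00352, edgeR's quasi-likelihood test of read class by genotype). This fall passed in all 12 alternatives tried, each library left out in turn among them, with adjusted P between 2.37e-11 and 0.0209. The smallest of these came without CTL replicate 2. A fall was common: of 149 miRNAs tested for 1 T, 54.4% were called lower in cKO and 0 were called higher.

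Reads of miR-223-3p with exactly 2 added Ts made up 14.3%, 4.09%, 7.51%, 12.6% and 21.6% in CTL and 12.6%, 8.47%, 1.83% and 0.556% in cKO. The groups overlapped: cKO replicate 1 stood at the middle of the CTL range, and cKO replicate 4 at a small part of the lowest CTL value. The means were 12.01% ± 6.72 (SD, n = 5) and 5.87% ± 5.69 (SD, n = 4), with a log2 change in odds of -1.72 (SE 0.87, adjusted P = 0.0710, edgeR), which missed the threshold. It passed without CTL replicate 2 (-2.07, adjusted P = 0.000106), without cKO replicate 1 (-2.49, adjusted P = 0.0158) and without cKO replicate 2 (-2.32, adjusted P = 0.0365) in the same edgeR test. These were the lowest CTL and the highest cKO libraries in this share, so leaving each out favours a fall. The test missed in the other 9 of 12 alternatives. The change was -1.28 without cKO replicate 3 (adjusted P = 0.246, edgeR) and -0.87 without cKO replicate 4 (adjusted P = 0.426, edgeR). Of 66 miRNAs tested for 2 Ts, 63.6% were called lower and 0 higher. In level, miR-223-3p had the second highest 2-T share of the 66 in CTL and the third highest in cKO, where the median share was 0.609% and 0.0204%.

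Tails of 3 Ts were rare on miR-223-3p, at 2, 0, 2, 3 and 3 reads in CTL and 0 in each cKO library. Pooled, this was 10 of 9294 reads against 0 of 5839, which allows a share of up to 0.0514%. With 3 counts set for cKO and the CTL count taken as exact, the share was 2.09-fold lower in cKO. With counting error in both groups, the exact lower limit of the fold was 1.41, and 0.990, which bounds no fall, without CTL replicate 5. Without cKO replicate 4, which held most of the cKO reads, the fold against 3 counts was 0.739 and no fall could be bounded. The edgeR test gave an adjusted P of 0.0473, and it missed the threshold in 10 of 12 alternatives, with adjusted P up to 0.191. Of the 35 miRNAs tested for 3 Ts, 80% were called lower.

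Added up, 39.9%, 10.0%, 27.8%, 38.0% and 43.0% of miR-223-3p reads in CTL, and 19.6%, 15.3%, 3.74% and 2.81% in cKO, carried an added T. The cKO libraries fell into a higher pair, replicates 1 and 2, and a lower pair, replicates 3 and 4, and CTL replicate 2 lay below the higher pair. Pooled, 3086 of 9294 CTL reads and 286 of 5839 cKO reads were tailed, 6.78-fold fewer in cKO (95% exact interval 6.004 to 7.68, counting error only), and 3.802-fold fewer without cKO replicate 4. The log2 change in odds was -2.38 (SE 0.75, adjusted P = 0.0136, edgeR), and -2.83 (adjusted P = 1.07e-09, edgeR) without CTL replicate 2, when the CTL mean was 37.2% ± 6.59 (SD, n = 4). That P stood apart: with each other library left out, the adjusted P lay between 0.00429 and 0.0673 (edgeR). In the same edgeR test the change missed the threshold without cKO replicate 3 (-1.95, adjusted P = 0.0615) and without cKO replicate 4 (-1.82, adjusted P = 0.0673). Of the 143 miRNAs tested for any added T, 59.4% were called lower in cKO and 0 higher. Entry to this test asked for tailed reads in CTL libraries only, which favours calls of a fall. With entry blind to genotype, 85 of 151 miRNAs were called. In level miR-223-3p ranked 17th of the 143 in CTL and 26th in cKO, against median shares of 5.75% and 0.463%.

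**Figure D3:**
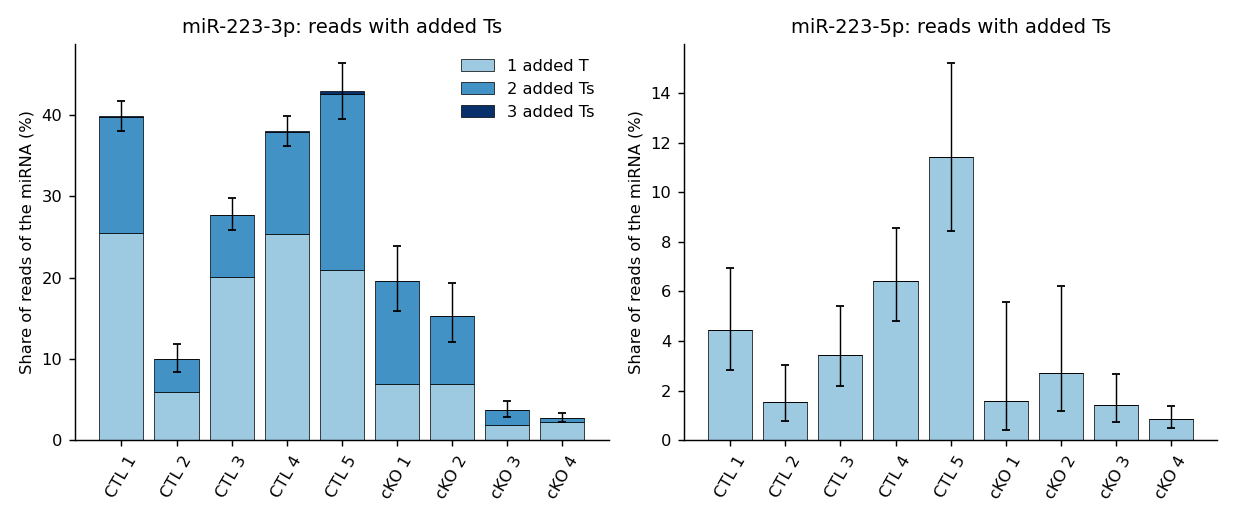
Percent of miR-223-3p reads (left) and miR-223-5p reads (right) with 1, 2 or 3 added Ts in each of the 9 libraries, as stacked bars with the 95% Wilson interval of their sum. For miR-223-3p, CTL replicate 2 is the lowest CTL library at 10.0%, and cKO replicates 1 and 2, at 19.6% and 15.3%, hold more 2-T than 1-T reads. All miR-223-5p tails are single Ts.

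On the abundance scale, tailed miR-223-3p reads stood at 4565, 444, 1641, 3650 and 1285 CPM in CTL and at 498, 158, 112 and 267 CPM in cKO. Untailed reads stood at 1706 to 6883 CPM in CTL and 869 to 9235 CPM in cKO. The tailed level thus separated the groups in all libraries but CTL replicate 2, and the untailed level did not: the difference of its log2 CPM was -0.65 (exact permutation P = 0.429, a value chosen after the data were seen).

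Among tailed reads, the balance of 2 Ts to 1 T varied more in cKO than in CTL. Reads with 2 Ts were 35.8%, 40.7%, 27.1%, 33.1% and 50.3% of tailed miR-223-3p reads in CTL and 64.4%, 55.2%, 49.0% and 19.8% in cKO. cKO replicates 1 and 2 lay above every CTL library and cKO replicate 4 lay below every one. The log2 ratio of 2-T to 1-T reads differed by 0.52 between the groups (exact permutation P = 0.413, chosen after the values were seen), within the spread.

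miR-223-5p carried single Ts only. Its tailed share was 4.46%, 1.56%, 3.45%, 6.44% and 11.4% in CTL, from 18, 8, 18, 43 and 39 reads, and 1.57%, 2.73%, 1.42% and 0.845% in cKO, from 2, 5, 9 and 15 reads. CTL replicate 5 was the highest library, and CTL replicate 2 again lay among the cKO libraries. The means were 5.46% ± 3.76 (SD, n = 5) and 1.64% ± 0.791 (SD, n = 4), the log2 change in odds was -1.76 (SE 0.64), and the adjusted P was 0.0265 (edgeR). Without CTL replicate 2 the change was -2.24 (adjusted P = 9.44e-06, edgeR). With each other library left out, the adjusted P lay between 0.0303 and 0.112 (edgeR). In the same edgeR test the call was lost without CTL replicate 4 (-1.61, adjusted P = 0.0671), CTL replicate 5 (-1.39, adjusted P = 0.0714), cKO replicate 3 (-1.75, adjusted P = 0.0717) or cKO replicate 4 (-1.39, adjusted P = 0.112). Pooled, 5.15% of 2448 CTL reads and 1.14% of 2719 cKO reads were tailed, 4.51-fold fewer in cKO (95% exact interval 3.03 to 6.92, counting error only). Without cKO replicate 4, which held most of the cKO reads, the fold was 3.03 (95% exact interval 1.80 to 5.47). No read had 2 or 3 Ts, of 2448 CTL reads, which allows up to 0.123%, and of 2719 cKO reads, which allows up to 0.110%.

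The 2 arms of 1 hairpin therefore differed in tail level and length within the same libraries. In log2 odds of an added T, miR-223-3p stood 3.12 ± 0.50 above miR-223-5p in CTL (SD, n = 5) and 2.32 ± 1.00 above it in cKO (SD, n = 4). The fall was not shown to differ between the arms (difference -0.80, exact permutation P = 0.190, chosen after the values were seen).

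No added T was read on either miR-142a arm. For miR-142a-3p this was 0 of 135 reads in CTL, which allows a share of up to 2.22%, and 0 of 109 in cKO, which allows up to 2.75%. For miR-142a-5p it was 0 of 8 and 0 of 11 reads, which allow up to 37.5% and 27.3%. A change with genotype was not detectable at this depth on either arm. In CTL the limit for miR-142a-3p was far below the miR-223-3p share of 33.2% in the pooled reads, and in cKO it was nearer to the pooled 4.90%. The log2 odds of miR-223-3p minus those of miR-142a-3p, with 0.5 added to each count, were 4.49 ± 0.81 in CTL (SD, n = 5) and 2.004 ± 1.74 in cKO (SD, n = 4), a difference of -2.49 (exact permutation P = 0.0317). With no tailed miR-142a-3p read, its side of this difference moved only with its depth, and the call was lost in 8 of 11 alternatives.

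**Figure D4:**
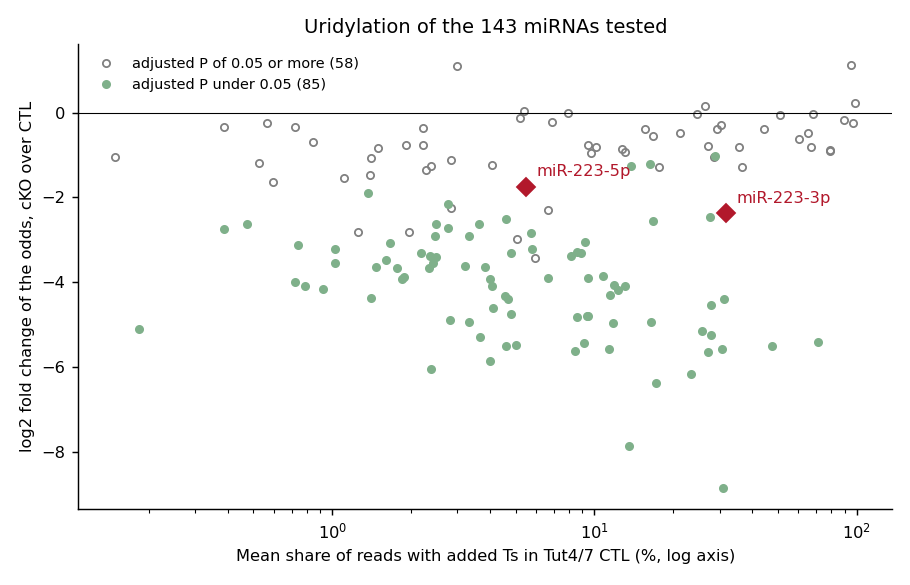
Log2 change in the odds of an added T, cKO over CTL, against the mean percent of CTL reads with an added T (log axis), with a point for each miRNA tested, filled where the adjusted P was under 0.05, and diamonds for the 2 arms of miR-223. miR-223-3p lies at 31.7% and -2.38, miR-223-5p at 5.46% and -1.76, and the 85 called miRNAs all lie below 0. All miRNAs shown entered through tailed reads in CTL.

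The 3′ end of miR-223-3p also varied inward. Reads that ended before its last base, mostly 1 base early, were 20.5%, 27.8%, 23.6%, 21.1% and 13.6% of its reads in CTL and 27.7%, 28.6%, 30.5% and 32.8% in cKO. All cKO libraries but replicate 1 lay above every CTL library, and CTL replicate 2 stood level with cKO replicate 1. The means of 21.3% ± 5.20 (SD, n = 5) and 29.9% ± 2.27 (SD, n = 4) gave a log2 change in odds of 0.68 (SE 0.26) with an adjusted P of 0.206 (edgeR), or 0.82 (adjusted P = 0.0717, edgeR) without CTL replicate 2, where 4.74% of 190 miRNAs were called. Tailed reads are in that denominator. Among reads without an added T the shares were 34.1%, 30.9%, 32.6%, 34.0% and 23.8% in CTL and 34.4%, 33.8%, 31.7% and 33.7% in cKO. CTL replicate 5 was low and the other 8 libraries lay close together, with a log2 change in odds of 0.16 (adjusted P = 0.865, edgeR, 1.09% of 184 miRNAs called). About the same part of untailed miR-223-3p reads thus ended early in both groups.

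miR-223-5p ended early in 32.1% of reads in CTL and 31.5% in cKO on average (log2 change in odds -0.06, adjusted P = 0.965, edgeR). A U on a trimmed miR-223-5p end cannot always be seen, since its template already ends in 2 Us before the last G. miR-142a-3p ended early in 51.0% ± 15.1 (SD, n = 5) and 63.9% ± 20.0 (SD, n = 4) of reads, a log2 change in odds of 0.45 (adjusted P = 0.773, edgeR).

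**Figure D5:**
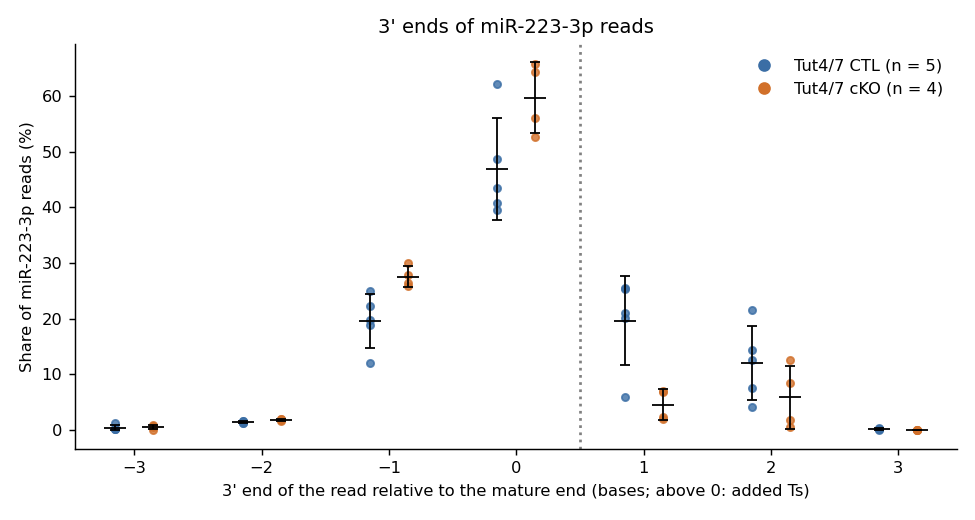
Percent of miR-223-3p reads by where they end relative to the annotated 3′ end, in bases, with positions above 0 for added Ts. Points are libraries, and bars give the mean ± SD of the 5 CTL and 4 cKO libraries. Early ends total 21.3% in CTL and 29.9% in cKO, and ends with an added T total 31.7% and 10.4%.

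Of the 4 miRNAs, miR-142a-3p had the highest share of shifted 5′ starts in both groups. It started at a base other than the annotated first one in 40.0%, 67.5%, 41.7%, 40.7% and 42.1% of its reads in CTL and 47.8%, 31.6%, 49.1% and 50% in cKO. The groups overlapped, and both the highest and the lowest value came from libraries with 40 and 19 reads. The means were 46.4% ± 11.8 (SD, n = 5) and 44.6% ± 8.74 (SD, n = 4), with a log2 change in odds of -0.14 (adjusted P = 0.963, edgeR, 0.855% of 117 miRNAs called). It was 0.23 without CTL replicate 2. In level it ranked 8th of 117 in CTL and 7th in cKO, where the median miRNA shifted in 1.27% and 1.06% of reads.

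Such starts change the seed, so the forms are shown with their first base.
miR-142a-3p, start at base 1: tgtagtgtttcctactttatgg
miR-142a-3p, start at base 2: gtagtgtttcctactttatgga
The first was the most frequent miR-142a-3p read, with 42 reads in CTL and 43 in cKO, and the second followed with 35 and 33. By start, 69 of 135 CTL reads and 59 of 109 cKO reads held the seed GUAGUGU, 60 and 48 reads, or 44.4% and 44.0%, held UAGUGUU, and 6 and 2 reads held AGUGUUU. No other mouse mature miRNA of the RefSeq table holds the first or the second of these. Starts upstream of the annotated first base could not be seen, because reads were matched to the mature sequence.

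miR-223-3p shifted its start in 5.73% ± 1.05 (SD, n = 5) of reads in CTL and 4.81% ± 0.973 (SD, n = 4) in cKO (log2 change in odds -0.24, adjusted P = 0.697, edgeR), nearly all to base 2, which gives the seed UCAGUUU. miR-223-5p shifted in 0.196% and 0.343%. miR-142a-5p had 0 shifted reads of 8 in CTL and 0 of 11 in cKO, which allow up to 37.5% and 27.3%. Added Ts were found on both start forms of miR-223-3p: 32.2% ± 14.0 (SD, n = 5) of reads with the annotated start and 24.3% ± 5.50 (SD, n = 5) of shifted reads were tailed in CTL, and 10.6% ± 8.61 (SD, n = 4) and 5.38% ± 3.59 (SD, n = 4) in cKO. Compared within libraries, shifted reads were tailed less often in 4 of 4 cKO and 3 of 5 CTL libraries, and more often in the other 2 CTL libraries. No test of this difference was run.

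Other miRNAs linked to myeloid cells were read from a list of 9. In abundance 0 of the 9 changed by edgeR, 0 had an unadjusted P under 0.05 and 0 passed by DESeq2, with a median log2 fold change of 0.38 against -0.01 over all 205. For added Ts, 5 of the 9 fell and 0 rose, a share near the 59.4% called lower over all miRNAs, with a median log2 change in odds of -2.63. Over all 143 miRNAs the median was -2.84, or -1.82 with miRNAs that had no tailed cKO read set to their bound from 3 counts. The 5 were miR-23a-3p and miR-27a-3p, which come from 1 cluster of hairpins, miR-24-3p, which that cluster also encodes, miR-29a-3p and miR-146a-5p. The last is a brake on inflammatory signalling.

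miR-24-3p was tailed in 3.67% ± 1.97 (SD, n = 5) of reads in CTL and 0.0971% ± 0.0665 (SD, n = 4) in cKO (log2 change in odds -5.29, edgeR). miR-27a-3p had 13 tailed reads of 8680 in CTL and 0 of 12437 in cKO. The miR-29a-3p call rested on 8 and 1 tailed reads and was lost in 6 of 15 alternatives. The miR-146a-5p call was lost without cKO replicate 3 (adjusted P = 0.0645, edgeR), without cKO replicate 4 (-1.45, adjusted P = 0.290, edgeR) and with a quasi-binomial model (adjusted P = 0.0758). Among the most read of the list, miR-21a-5p stayed tailed in 27.2% ± 6.44 (SD, n = 5) and 17.9% ± 4.94 (SD, n = 4), a log2 change of -0.79 that missed the threshold (adjusted P = 0.152, edgeR).

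Of 12 miRNAs linked to stem and progenitor cells or to Hox loci, 11 had an entry and 6 could be tested for abundance. Of these, 0 changed by edgeR, 1 had an unadjusted P under 0.05, and that 1, miR-222-3p, passed by DESeq2 (adjusted P = 0.0274). For added Ts, 4 could be tested and 2 fell, where 59.4% of all miRNAs were called lower: miR-221-3p, from 4.67% ± 3.14 (SD, n = 5) to 0.231% ± 0.176 (SD, n = 4), and miR-181a-5p, from 16.3% ± 3.06 (SD, n = 5) to 7.94% ± 2.68 (SD, n = 4). The miR-181a-5p call was lost in 9 of 15 alternatives. The third most read of the list, miR-10a-5p, ranged from 916 to 42657 CPM in CTL and from 562 to 28179 CPM in cKO.

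Markers of other fetal liver cells were read beside these. The hepatocyte miRNA miR-122-5p stood at 482 to 1246 CPM in CTL and 694 to 1505 CPM in cKO, so it was read in every library at several times the level of miR-142a-3p. The erythroid miRNA miR-451a stood at 0 to 6.83 CPM over the 9 libraries, with 2 reads in CTL and 3 in cKO. miR-486a-5p, also erythroid, stood at 22.3 to 154 and 6.85 to 95.6 CPM. The lymphoid miRNA miR-150-5p stood at 4.47 to 67.6 and 35.2 to 279.8 CPM (log2 fold change 1.99, adjusted P = 0.240, edgeR). Of the 6 listed, 4 had an entry and 3 were tested for abundance, of which 0 passed by edgeR and 0 by DESeq2, and 1 had an unadjusted P under 0.05. Their summed level was 527 to 1364 CPM in CTL and 888 to 1842 CPM in cKO, with ranges that overlap, and their part in the miR-223 values was not tested.

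No difference in culture or processing is described for the 9 libraries, and the log2 CPM within a library all depend on the same total. Across these libraries, the level of miR-223-3p was most like those of miR-34a-5p (Pearson r = 0.91, Spearman rho = 0.87), miR-7033-5p (0.89 and 0.73) and miR-21a-3p (0.89 and 0.82) among 205 miRNAs. Its own 5p arm came 5th (0.87 and 0.85), and miR-142a-3p came 101st (-0.06 and -0.10). For miR-142a-3p the closest were miR-106b-3p (0.61 and 0.28), miR-99a-5p (0.61 and 0.60) and miR-30c-2-3p (0.59 and 0.07), where rank and linear values often parted. These are descriptions over both genotypes, with no test.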

How the data were processed

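Small RNA was sequenced in 9 libraries, 5 Tut4/7 CTL and 4 Tut4/7 cKO, grouped by the genotype in the labels. The authors removed adapters with cutadapt (5.0 in the submitters' processing notes) and mapped reads with Bowtie (1.3.1), allowing no mismatch, to miRBase mature sequences extended by 3 Ts. The miRBase release is not given in the sources used here. The authors deposited unnormalized counts, 1 table for all mature miRNAs, and a list for every library of its distinct reads with their counts, starts and ends. A T past the mature end was taken as an added U. Tails of other bases, most tails on trimmed ends, and starts upstream of base 1 are not seen by this mapping. The notes also name DESeq2 1.42.1.

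From these, abundance was tested with edgeR 4.0.16 (R 4.3.3; quasi-likelihood, TMM) for miRNAs with at least 10 reads in 4 libraries, and SEs were taken from the fold change and its F statistic. Shares of reads (any added T; 1, 2 or 3 Ts; early 3′ end; shifted 5′ start) were tested as the interaction of read class and genotype with a term per library, for miRNAs with at least 10 reads in 5 libraries and reads of the class in at least 3 (3 of the 5 CTL libraries for any added T, as in the study, and 3 of 9 otherwise). P values were adjusted over all miRNAs tested. The tests of abundance and of any added T were run on simulated counts with large set changes. These counts spread less between libraries than miR-223-3p did, so the run does not check the tests at its spread. Single values per library used two-sided exact permutation tests (SciPy 1.17.1), 10 in all, 5 of them chosen after their values were seen, unadjusted. Intervals are 95% (Wilson for shares, exact for ratios), and limits for 0 reads use 3 counts. With no molecular identifiers, both cover counting error only.

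Replicates differed by far more than sampling noise. Alternatives were DESeq2 1.42.0, other scalings and filters, a quasi-binomial model, each library left out, and a replicate block. The text names the 4 miRNAs, the listed miRNAs that passed or were most read, and the 3 miRNAs most like miR-223-3p and miR-142a-3p. A few others are named after their values were seen: miR-222-3p, miR-451a and miR-92a-3p. The members, lists and tests were chosen with earlier results of these data known. Of the lists, miR-196b-5p, miR-144-3p and miR-144-5p were not analysed here.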

Additional observations from a re-analysis of the deposited data

Results flagged for a closer look

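In 7 of 52 groups checked, 1 library lay farther from the rest of its group than Dixon's 95% limit, which chance alone passes in about 1 of 20 groups. For miR-223-3p, CTL replicate 2 had 5.96% of reads with 1 added T, below the other 4 CTL libraries. CTL replicate 5 had the highest share with 3 added Ts, 0.377%, from 3 reads. CTL replicate 3 had the highest share of miR-223-3p reads with a shifted start, 7.51%. For miR-142a-3p, the shifted-start share was 67.5% in CTL replicate 2, above its group, and 31.6% in cKO replicate 2, below its group, on 40 and 19 reads. The log2 ratio of the miR-223 arms was 1.55 in cKO replicate 1, above the other 3 cKO libraries. The log2 ratio of miR-223 to miR-142a reads was 8.74 in cKO replicate 4, the library with the most miR-223 and the fewest miR-142a-3p reads.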

How the results depend on the processing

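The call that miR-223-3p with 1 added T was lower in cKO held in 12 of 12 alternatives. Abundance calls, 1 over all miRNAs, were 11 by DESeq2, 18 without a filter, 0 with at least 50 reads and 0 to 2 with a library left out. With at least 200 reads, calls for any added T were 48 of 73 tested (85 of 143 before), for 1 T 45 of 72 (81 of 149 before), for early ends 5 of 75 (9 of 190 before) and for shifted starts 5 of 66 (1 of 117 before). With a library left out, calls ranged from 61 to 100 for any added T, 61 to 96 for 1 T, 33 to 51 for 2 Ts, 9 to 31 for 3 Ts, 2 to 11 for early ends and 0 to 9 for shifted starts. Among reads without an added T, 2 miRNAs were called for early ends. The labels do not say whether same-numbered libraries were matched. The values showed no clear pairing by number (correlation of deviations of same-numbered libraries -0.27 to 0.36, not every library closest to its own number), which cannot exclude one. On replicates 1 to 4 with the replicate block, and without it, calls were 4 and 16 for 3 Ts, 3 and 2 for early ends and 3 and 0 for shifted starts, and abundance calls were 0 with the block. Also with the block, the log2 change was -0.65 for miR-223-5p abundance (-0.18 without it), and the odds difference of miR-223-3p and miR-142a-3p was -2.39 (exact P = 0.125, the smallest possible). With a library left out, that difference ranged from -2.99 to -1.66, the miR-223 arm ratio from -0.78 to -0.42, and miR-223 over miR-142a from -1.62 to -0.15. Values that turned sign had missed the threshold before and after: with a library left out, miR-223-5p abundance ranged from -1.01 to 0.35, miR-142a-3p abundance from -0.52 to 0.047, miR-223-5p early ends from -0.18 to 0.073, and shifted starts from -0.43 to 1.05 for miR-223-5p and -0.28 to 0.23 for miR-142a-3p. The cause of these moves was not tested. miR-142a-3p gave no value with at least 50 or 200 reads, and miR-142a-5p in no test. Depth limited miR-142a most: with 12 to 55 reads of the 3p arm in a library, 0 tailed reads allow a share of up to 5.45% to 25% in that library. This share is of all its reads, those that ended early included.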
